A study of Mus musculus with 4 samples.

Results

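Replication-dependent histone genes encode the H1, H2A, H2B, H3 and H4 proteins that package new DNA in S phase. They were taken here as every symbol of the Hist1, Hist2, Hist3 and Hist4 clusters in the deposited table, pseudogenes left out, which gave 67 of the 23235 genes listed. There were 6 H1, 18 H2A, 18 H2B, 12 H3 and 13 H4 genes. Of the 67 genes, 54 lay on chromosome 13, 10 on chromosome 3, 2 on chromosome 11 and 1 on chromosome 6.

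The study deleted Dcaf13, which encodes a nucleolar protein, in mouse oocytes and sequenced their RNA at 2 stages of growth. All mice had a C57B6 strain background and both floxed Dcaf13 alleles, Dcaf13fl/fl. Deletion mice carried Gdf9-Cre in addition, a transgene in which the oocyte gene Gdf9's promoter drives Cre recombinase, and control mice did not. Every group was a single library of 10 pooled oocytes. The 4 groups were growing oocytes of deletion mice, growing oocytes of control mice, fully grown oocytes of deletion mice and fully grown oocytes of control mice. The mice were about 14 days old for growing oocytes and about 23 days old for fully grown ones. The older mice had an injection of 5 IU of PMSG, a gonadotropin that stimulates the growth of follicles, 48 h earlier, so that stage, age and PMSG cannot be told apart.

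Most histone mRNAs of these clusters are not polyadenylated. Their 3′ end is a conserved stem-loop, bound by the stem-loop binding protein SLBP, and the pre-mRNA is cut just after it with the help of the U7 snRNP. Oocytes do not replicate DNA, and the histones made during their growth are stored for the embryo. The libraries were primed with oligo-dT, so a histone mRNA that ends at the stem-loop offers no poly(A) tail to the primer, and the values below describe the histone RNA that this protocol captured.

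The stem-loop was looked for in the GENCODE M21 transcript of each gene (GRCm38 build, sense strand). The motif was GGNNNTNNNNANNNCC, where the 6 bases on each side must pair and the 4 bases between them form the loop. It was present in 45 of 67 histone genes, or 67.2%, against 383 of 21810 other coding genes, or 1.76%. A match describes the letters alone. The same stem-loop, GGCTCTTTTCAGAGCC, was present in 25 H1, H2A, H2B and H3 genes, and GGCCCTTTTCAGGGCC was present in 7 H4 genes. Of the 14 genes that reached 5 FPKM (fragments scaled to transcript length and sequencing depth) in a library, 9 held the motif. Their sites are shown because most histone mRNAs of these clusters end at this element without a poly(A) tail. A match does not tell whether the RNA captured here ended there. Capitals mark the stem-loop.
Hist1h1c: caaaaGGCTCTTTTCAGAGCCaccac
Hist3h2a: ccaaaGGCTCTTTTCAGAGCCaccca
Hist3h2ba: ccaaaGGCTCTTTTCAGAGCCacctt
Hist1h3g: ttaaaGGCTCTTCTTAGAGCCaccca
Hist1h4a: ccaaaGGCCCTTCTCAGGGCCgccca
Hist1h4c: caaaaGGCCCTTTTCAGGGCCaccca
Hist1h4d: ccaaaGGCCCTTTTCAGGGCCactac
Hist1h4h: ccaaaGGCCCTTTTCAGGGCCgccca
Hist1h4i: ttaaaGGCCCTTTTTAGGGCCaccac

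The 5 other genes at 5 FPKM or more, Hist1h1a, Hist1h2aa, Hist1h2ba, Hist1h2bc and Hist2h2bb, had no match. The annotated transcripts of Hist1h2aa (390 bases), Hist1h2ba (384 bases) and Hist2h2bb (381 bases) hold the coding sequence alone, so nothing past it was searched. The transcript of Hist1h2bc is 1156 bases long, of which 381 are coding.

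Among the 45 genes with the motif, 23 had an annotated transcript that went on for at least 100 bases past the stem-loop, and 22 had one that ended sooner. Of the 23 with a longer transcript, 7 reached 5 FPKM in a library and 14 reached 1 FPKM. Of the 22 that ended within 100 bases, 2 reached 5 FPKM and 10 reached 1 FPKM. The 2 were Hist1h3g and Hist1h4h, whose transcripts end 47 and 46 bases after the stem-loop. The longest stretch past the stem-loop among the expressed genes was that of Hist3h2a, 1643 bases, followed by Hist1h1c with 840 bases and Hist1h4d with 770 bases. A poly(A) signal, spelled as AATAAA or as ATTAAA, was found within the last 60 bases of 17 of the 67 transcripts, 6 of them among the 14 expressed genes. These are descriptions of the annotation, with no test.

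**Figure D1:**
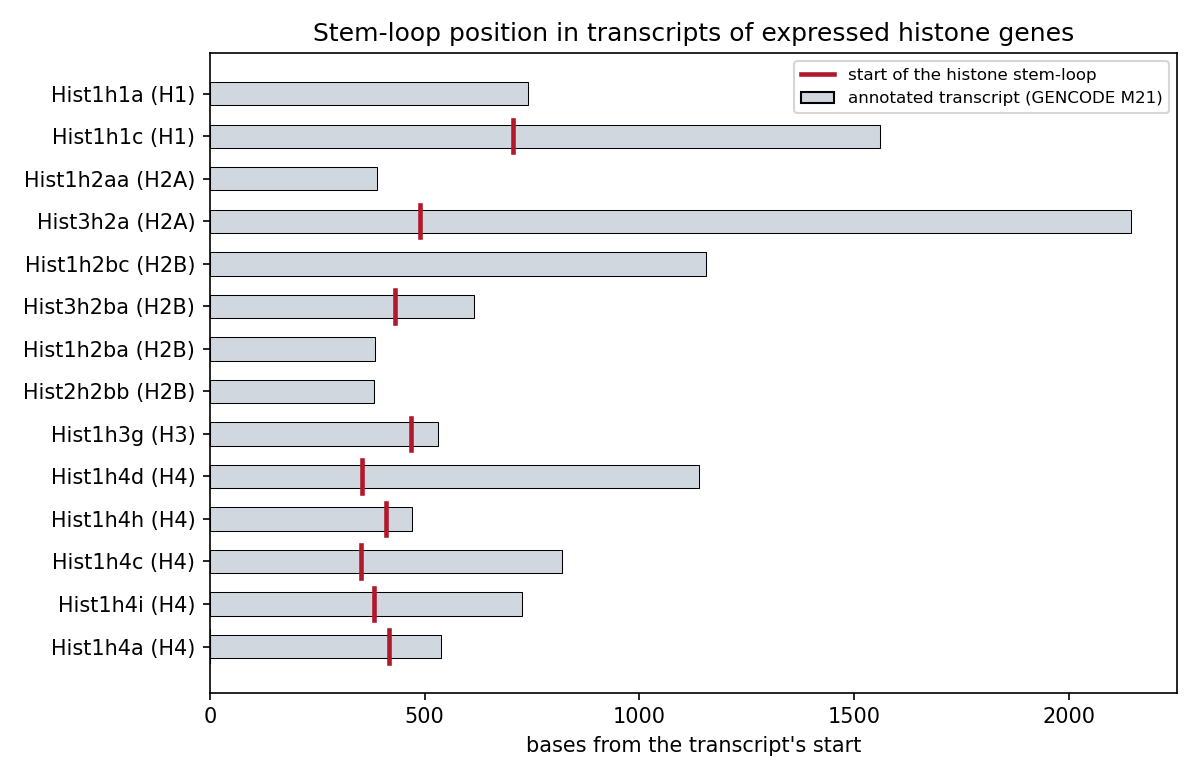
Bars give the length in bases of the annotated transcript of each of the 14 histone genes at 5 FPKM or more, and red ticks the start of the stem-loop. In 7 of the 9 genes with a tick the transcript runs on for at least 100 bases after it, the longest being Hist3h2a at 2146 bases in all.

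The files were read with the symbols re-paired to the values, an inference from the values that is described with the processing. Within the histone block the re-pairing moves every symbol by 1 row, so each value below rests on it. The targeted gene, whose row is not affected, was listed at 38.9 FPKM in growing deletion oocytes, against 96.1 FPKM in growing control oocytes. In fully grown deletion oocytes it stood at 64.0 FPKM, against 160.2 FPKM in fully grown control oocytes. Between 10469 and 11048 genes reached 1 FPKM in a library. All 18 oocyte markers reached 1 FPKM, with summed levels of 27349 to 31460 FPKM. Of the 12 granulosa markers, 7 reached 1 FPKM in a library, with a sum of 18.0 FPKM in growing deletion, 35.9 in growing control, 31.4 in fully grown deletion and 28.9 in fully grown control oocytes. None of the 8 theca and stroma markers reached 1 FPKM, and of the 6 blood and endothelium markers all but Pecam1 were at or near 0.

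Histone genes were a small share of the captured RNA. Of the 67 genes, 30 reached 1 FPKM in a library and 14 reached 5 FPKM. Another 16 were above 0 but never reached 1 FPKM, and 21 were listed at 0 in all 4 libraries. The 67 genes summed to 469.9 FPKM in growing deletion oocytes, against 434.6 FPKM in growing control oocytes. They summed to 383 FPKM in fully grown deletion oocytes, against 438 FPKM in fully grown control oocytes. That was 0.0565% to 0.0706% of all FPKM in a library. The 12 listed replacement and variant histone genes had far higher sums, which under oligo-dT priming does not compare the full amounts of mRNA. They summed to 6096 FPKM in growing deletion, 7085 in growing control, 6812 in fully grown deletion and 7294 in fully grown control oocytes. Most of this was H1foo, the oocyte linker histone, at 4236 FPKM in growing deletion, 5555 in growing control, 5163 in fully grown deletion and 5519 in fully grown control oocytes.

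The H1, H2A and H2B sums each rested mostly on a single gene. H2B genes summed to 274 FPKM in growing deletion, 285 in growing control, 168 in fully grown deletion and 269 in fully grown control oocytes. Hist1h2bc alone supplied 89.2% in growing deletion, 90.0% in growing control, 82.8% in fully grown deletion and 90.1% in fully grown control oocytes. H4 genes summed to 75.2 FPKM in growing deletion, 54.0 in growing control, 77.3 in fully grown deletion and 61.5 in fully grown control oocytes, spread over 5 expressed genes. H2A genes, mostly Hist1h2aa, summed to 61.9 FPKM in growing deletion, 66.4 in growing control, 49.1 in fully grown deletion and 63.6 in fully grown control oocytes. H1 genes, mostly Hist1h1a, summed to 47.2 FPKM in growing deletion, 22.3 in growing control, 66.1 in fully grown deletion and 30.8 in fully grown control oocytes. H3 genes were lowest, with sums of 11.9 FPKM in growing deletion, 7.12 in growing control, 22.6 in fully grown deletion and 13.5 in fully grown control oocytes. The H1, H3 and H4 sums were each higher in both deletion libraries than in the control library of the same stage, and the H2A and H2B sums were each lower. Without Hist1h2aa, H2A summed to 13.2 and 6.99 FPKM in growing deletion and control, and 8.70 and 7.78 in fully grown deletion and control oocytes. Without Hist1h2bc, the H2B values were 29.7 and 28.4, and 28.8 and 26.5 FPKM in the same order. Both were then higher in deletion oocytes. Without Hist1h4d, H4 was lower in fully grown deletion (41.7 FPKM) than in fully grown control oocytes (48.0 FPKM). H1, H3 and growing H4 kept their direction.

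**Figure D2:**
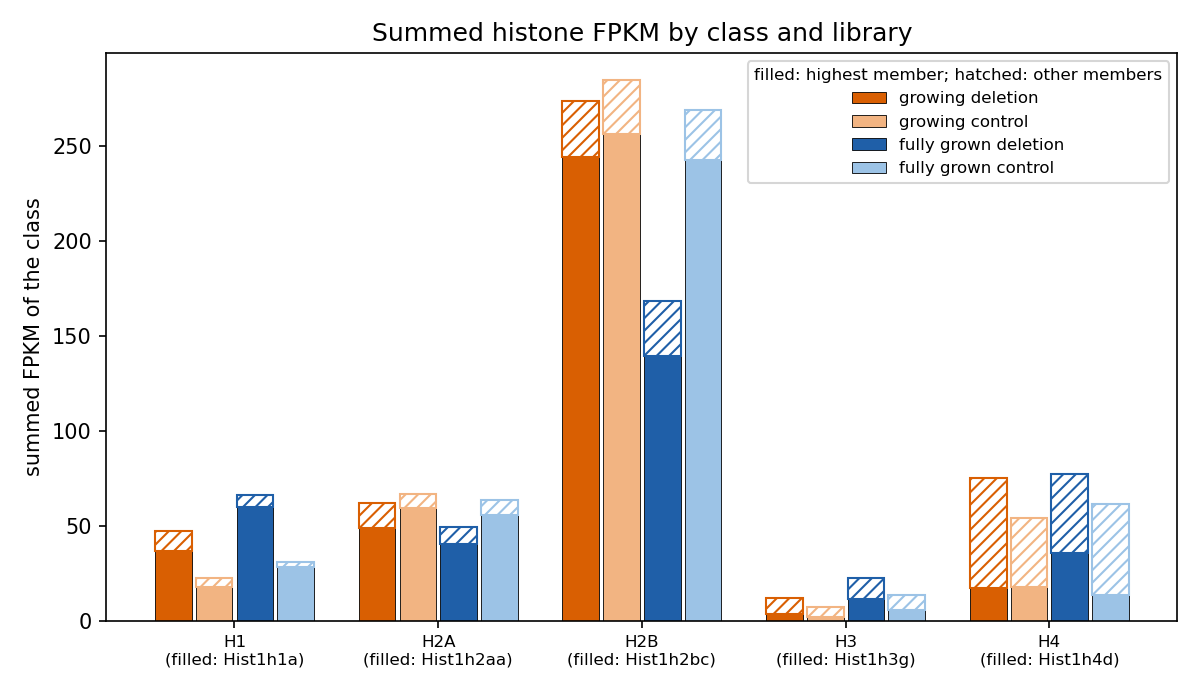
Bars give the summed FPKM of each histone class in each library, from growing deletion at the left to fully grown control at the right; the filled portion is the member with the highest mean and the hatched portion all other members. Hist1h2bc fills most of H2B (168 to 285 FPKM), while H4 (54.0 to 77.3 FPKM) is spread over several genes.

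With 1 library in a group no test could be run, and no difference below has an error estimate or a replicate check. Differences are on the log2(FPKM + 1) scale, which understates the change of low genes. A gene counts as higher or lower by the size rule where it reached 5 FPKM in at least 1 of the 2 libraries and differed by at least 1 on that scale. A gene can therefore reach the minimum only through the library in which it is higher, and such histone genes are named below. The same held for Inha, for Ccne1 in growth and for Ncbp1 among the genes of the other lists. FPKM is a share of a library, so less RNA per oocyte and a changed mix of cells cannot be told apart in these pools. The deletion and growth comparisons share libraries, so their values are given side by side and are not independent of one another.

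Deletion against control in growing oocytes put 4 histone genes higher and 1 lower of the 12 at 5 FPKM or more. The higher genes were Hist1h1a, Hist1h1c, Hist3h2a and Hist1h4h, and the lower gene was Hist2h2bb. Of these, Hist1h1c and Hist3h2a reached 5 FPKM only in the growing deletion library, and Hist2h2bb only in the growing control library. Over all 8010 genes at that level, 2.62% were higher and 2.51% were lower by the same rule. The median difference of the 30 histone genes at 1 FPKM or more was 0.45, with 18 above 0 and 8 below, beside 0.07 for all 11806 such genes. With the trend in GC content and length removed, 1 gene, Hist3h2a, was higher. All 7 granulosa markers at 1 FPKM or more were below 0 in this comparison, with 2 of them past the size rule. Cyp19a1 stood at 7.75 FPKM in growing deletion and 17.7 FPKM in growing control oocytes, and Inha at 2.16 FPKM in growing deletion and 6.53 FPKM in growing control oocytes. Their part in the result was not tested.

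In fully grown oocytes, deletion against control put 2 histone genes higher, Hist1h1a and Hist1h4d, and 0 lower of the 10 at 5 FPKM or more. Over all 7413 genes at that level, 1.08% were higher and 1.09% were lower. The median difference of the 30 histone genes was 0.11, with 15 above 0 and 15 below, beside 0.03 for all genes. Over the 14 genes at 5 FPKM or more in a library the median was -0.31. After median-ratio rescaling, only Hist1h4d was higher. Of the 7 granulosa markers, 4 were above 0 and 3 below, with a median difference of 0.43 and none past the size rule. Their sum was 31.4 FPKM in fully grown deletion and 28.9 FPKM in fully grown control oocytes, mostly Cyp19a1 (16.8 FPKM in fully grown deletion and 19.0 FPKM in fully grown control), while Inha stood at 4.99 FPKM in fully grown deletion and 2.40 FPKM in fully grown control oocytes. Their part in the result was not tested.

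Growth in control oocytes, fully grown over growing, put Hist1h2ba and Hist1h3g higher and 0 lower of 12 histone genes. Both reached 5 FPKM only in the fully grown control library, so the minimum selected them through the difference that is counted. Over all 7661 genes at that level, 1.11% were higher and 3.07% were lower. The median difference of the 30 histone genes was 0, with 13 above and 13 below, beside -0.10 for all genes. It was -0.28 with the GC and length trend removed. Of the 7 granulosa markers, 1 was above 0 and 6 below, with a median of -0.35. Inha was lower by the size rule, at 2.40 FPKM in fully grown control and 6.53 FPKM in growing control oocytes, and the part of these markers in the result was not tested.

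Growth in deletion oocytes put 4 of 13 histone genes higher, Hist1h2ba, Hist1h3g, Hist1h4c and Hist1h4d. It put 4 lower, Hist1h1c, Hist3h2a, Hist1h4h and Hist1h4i. Of these genes, Hist1h2ba and Hist1h3g reached 5 FPKM only in fully grown deletion, and Hist1h1c, Hist3h2a and Hist1h4i only in growing deletion oocytes. Over all 7957 genes at that level, 2.70% were higher and 8.75% were lower. The median difference of the 30 histone genes was -0.12, with 13 above 0 and 16 below, beside -0.11 for all genes. Over the 14 genes at 5 FPKM or more in a library it was -0.47. Of the 7 granulosa markers, 4 were above 0 and 3 below, with a median of 0.92. Cyp19a1 was higher by the size rule, at 16.8 FPKM in fully grown deletion and 7.75 FPKM in growing deletion oocytes, and the part of these markers in the result was not tested. Among the oocyte markers, Figla, an oocyte transcription factor, was lower, at 84.5 FPKM in fully grown deletion and 191 FPKM in growing deletion oocytes. The growth difference of Figla in control oocytes was -0.68, under the threshold.

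**Figure D3:**
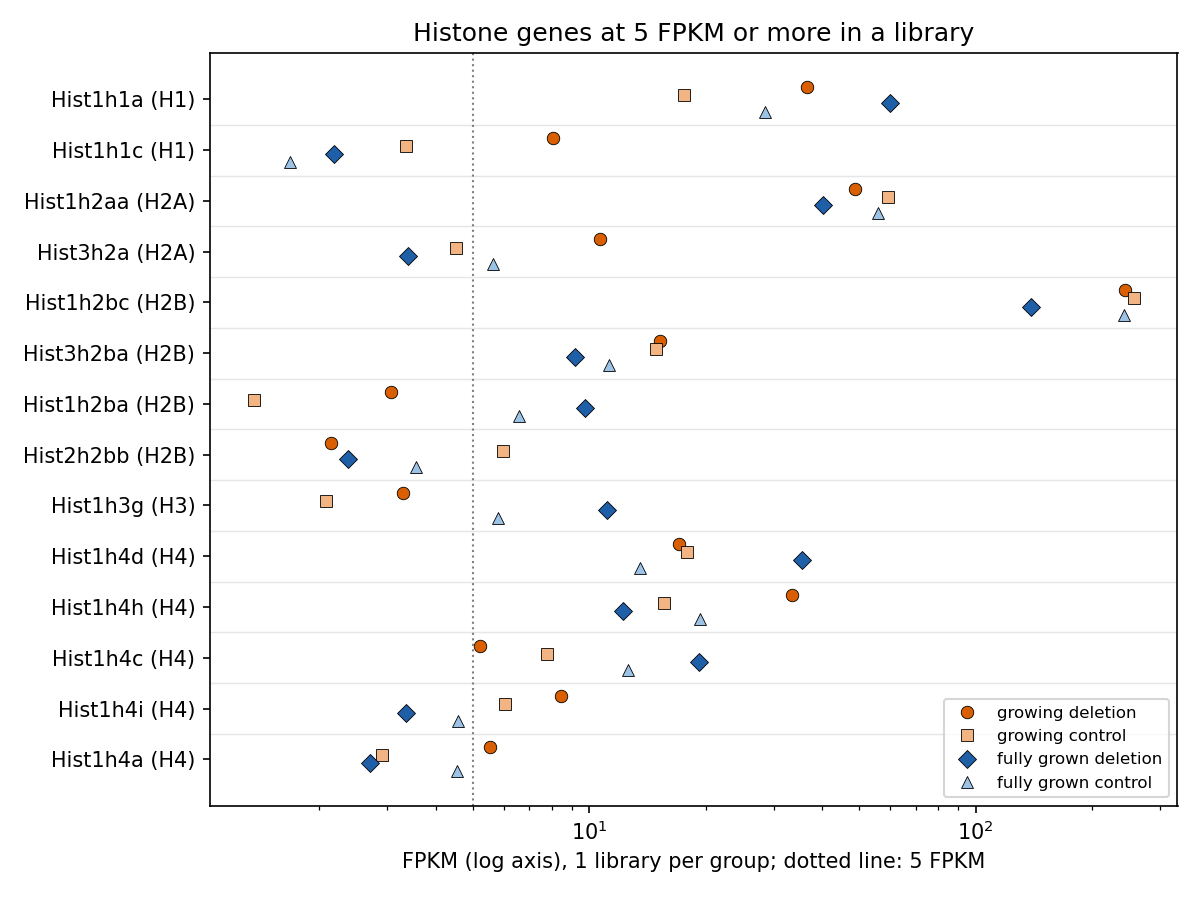
Each row is 1 of the 14 histone genes at 5 FPKM or more, and each point its FPKM in 1 library on a log axis. Both Hist1h1a points of deletion oocytes (36.5 and 59.9 FPKM) lie to the right of both control points (17.6 and 28.4 FPKM), and Hist1h2bc lies apart from the other genes at 139 to 256 FPKM.

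Linker histones bind the DNA between nucleosomes, and 2 of the 6 H1 genes reached 5 FPKM. Hist1h1a (chromosome 13, 23855537 to 23856283, plus strand, mm9) encodes the H1.1 linker histone. It was listed at 36.5 FPKM in growing deletion, 17.6 in growing control, 59.9 in fully grown deletion and 28.4 in fully grown control oocytes. Both deletion libraries were above both control libraries. The difference was 1.01 in growing and 1.05 in fully grown oocytes, ratios of 2.07 and 2.11, and the only histone gene past the size rule at both stages was this one. It lies close to the threshold, and after median-ratio rescaling of the libraries the differences were 0.96 and 0.99. With the trend in GC content and length removed, the growing difference was 0.81. None of the 50-base words in its transcript occurs in another gene. Hist1h1c, which encodes H1.2, was listed at 8.08 FPKM in growing deletion, 3.35 in growing control, 2.19 in fully grown deletion and 1.68 in fully grown control oocytes. The growing deletion library stood above the other libraries, with a difference of 1.06 over growing control and 0.25 between deletion and control in fully grown oocytes. Growth gave a difference of -1.51 in deletion and -0.70 in control oocytes. With the GC and length trend removed, the growing difference was 0.89. Hist1h1e, named after its values were seen, stayed under the minimum at 1.88 FPKM in growing deletion, 0.462 in growing control, 3.08 in fully grown deletion and 0.0507 in fully grown control oocytes. Hist1h1t, the testis-type H1, was listed at 0 in all 4 libraries.

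H2A and H2B form the dimers of the nucleosome. Hist1h2aa and Hist1h2ba are known as the testis-type H2A and H2B, which replace the usual forms in developing sperm and are also found in mouse oocytes. Hist1h2aa was listed at 48.7 FPKM in growing deletion, 59.4 in growing control, 40.4 in fully grown deletion and 55.8 in fully grown control oocytes. It was the highest H2A gene in all 4 libraries and lay below control in both deletion libraries, by differences of -0.28 in growing and -0.46 in fully grown oocytes, neither past the size rule. Hist1h2ba was listed at 3.07 FPKM in growing deletion, 1.36 in growing control, 9.73 in fully grown deletion and 6.56 in fully grown control oocytes. It was higher by the size rule in fully grown than in growing oocytes of both genotypes, by 1.40 in deletion and 1.68 in control oocytes. The deletion libraries lay above control by 0.79 in growing and 0.51 in fully grown oocytes, under the threshold. The 2 genes lie head to head on chromosome 13, with 305 bases between their deposited spans, Hist1h2ba at 24025642 to 24026025 on the minus strand and Hist1h2aa at 24026331 to 24026720 on the plus strand (mm9). Hist1h2aa exceeded Hist1h2ba by a ratio of 15.9 in growing deletion, 43.9 in growing control, 4.15 in fully grown deletion and 8.51 in fully grown control oocytes. The neighbours did not keep a fixed ratio across the libraries.

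Hist1h2bc, an H2B gene, had the highest FPKM of the 67 genes in every library. It was listed at 244 FPKM in growing deletion, 256 in growing control, 139 in fully grown deletion and 243 in fully grown control oocytes. The fully grown deletion library was low and the other libraries lay close together. The difference from control was -0.07 in growing and -0.80 in fully grown oocytes, not past the size rule. Its deposited span is 8282 bases, from 23776068 to 23784349 on chromosome 13 (mm9), the longest among the 14 expressed genes. Of its transcript's 50-base words, 30.1% occur in another gene. These words are shared with 100 genes, the most among the 14 expressed genes, and the part of fragments with several matches in its level was not tested.

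The Hist3 cluster on chromosome 11 has 1 H2A and 1 H2B gene in the table, and both were expressed. Hist3h2a was listed at 10.6 FPKM in growing deletion, 4.51 in growing control, 3.40 in fully grown deletion and 5.64 in fully grown control oocytes. The growing deletion library was the highest and the fully grown deletion library the lowest. The difference was 1.08 in growing oocytes, past the size rule, and -0.59 in fully grown oocytes, under it. Growth gave -1.40 in deletion and 0.27 in control oocytes. Its neighbour Hist3h2ba was listed at 15.3 FPKM in growing deletion, 14.9 in growing control, 9.20 in fully grown deletion and 11.2 in fully grown control oocytes. The growing libraries were nearly equal, with a difference of 0.03, and the fully grown difference was -0.26. Hist2h2bb, an H2B gene on chromosome 3, was listed at 2.14 FPKM in growing deletion, 5.97 in growing control, 2.38 in fully grown deletion and 3.56 in fully grown control oocytes. The growing control library stood above the other libraries, with a difference of -1.15 in growing oocytes, and 53.6% of the 50-base words of its transcript occur in another gene.

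H3 and H4 form the tetramer at the core of the nucleosome. Hist1h3g was the only H3 gene to reach 5 FPKM. It was listed at 3.29 FPKM in growing deletion, 2.08 in growing control, 11.1 in fully grown deletion and 5.80 in fully grown control oocytes. Both fully grown libraries lay above both growing libraries. Growth put it past the size rule in both genotypes, with a ratio of 3.38 in deletion and 2.79 in control oocytes. The control difference was 1.14, and 0.86 with the GC and length trend removed. The deletion difference was 0.48 in growing and 0.83 in fully grown oocytes, under the threshold. Of its transcript's 50-base words, 54.1% occur in another gene.

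The 5 expressed H4 genes encode the same histone and differed in pattern. Hist1h4d was listed at 17.0 FPKM in growing deletion, 17.9 in growing control, 35.6 in fully grown deletion and 13.5 in fully grown control oocytes. The fully grown deletion library was high and the other libraries lay between 13.5 and 17.9 FPKM. The deletion difference was -0.07 in growing and 1.34 in fully grown oocytes. The growth difference was 1.02 in deletion oocytes (0.91 with the GC and length trend removed) and -0.38 in control oocytes. Hist1h4h was listed at 33.4 FPKM in growing deletion, 15.6 in growing control, 12.2 in fully grown deletion and 19.4 in fully grown control oocytes. Here the growing deletion library was the highest and the fully grown deletion library the lowest, with a difference of 1.05 in growing and -0.63 in fully grown oocytes. With the GC and length trend removed, the growing difference was 0.71. Growth gave -1.38 in deletion and 0.30 in control oocytes.

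Hist1h4c was listed at 5.21 FPKM in growing deletion, 7.75 in growing control, 19.2 in fully grown deletion and 12.6 in fully grown control oocytes. Both fully grown libraries lay above both growing libraries. The growth difference was 1.70 in deletion oocytes, past the size rule, and 0.64 in control oocytes, under it. Hist1h4i was listed at 8.44 FPKM in growing deletion, 6.03 in growing control, 3.36 in fully grown deletion and 4.58 in fully grown control oocytes. Both fully grown libraries lay below both growing libraries, and the growth difference was -1.12 in deletion and -0.33 in control oocytes. Hist1h4a was listed at 5.53 FPKM in growing deletion, 2.90 in growing control, 2.70 in fully grown deletion and 4.55 in fully grown control oocytes. It passed the size rule in none of the 4 comparisons, though it was lower in growth of deletion oocytes with a pseudocount of 0.1 and with the GC and length trend removed. In that comparison it reached 5 FPKM only in the growing deletion library. Between 10.2% (Hist1h4d) and 45.8% (Hist1h4h) of the 50-base words of these 5 transcripts occur in another gene, and the counting of fragments with several matches is not given in the sources used here.

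Deletion differences at the 2 stages were set side by side. Of the 14 expressed genes, 4 were above control at both stages, 3 were below at both, 5 were above in growing and below in fully grown oocytes, and 2 were below in growing and above in fully grown oocytes. Of the 30 genes at 1 FPKM or more, 9 were above at both stages, 5 were below at both, 9 were above in growing and below in fully grown oocytes, 3 were the reverse, and 4 had no difference at a stage. Opposite directions were thus found for 7 of the 14 genes, beside 33.2% of all 8235 genes at 5 FPKM or more, and for 12 of the 30 genes (40.0%), beside 34.6% of all 11806 genes at 1 FPKM or more. Some of these directions rest on differences near 0, such as 0.03 for Hist3h2ba and -0.07 for Hist1h4d in growing oocytes, and the counts have no test.

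**Figure D4:**
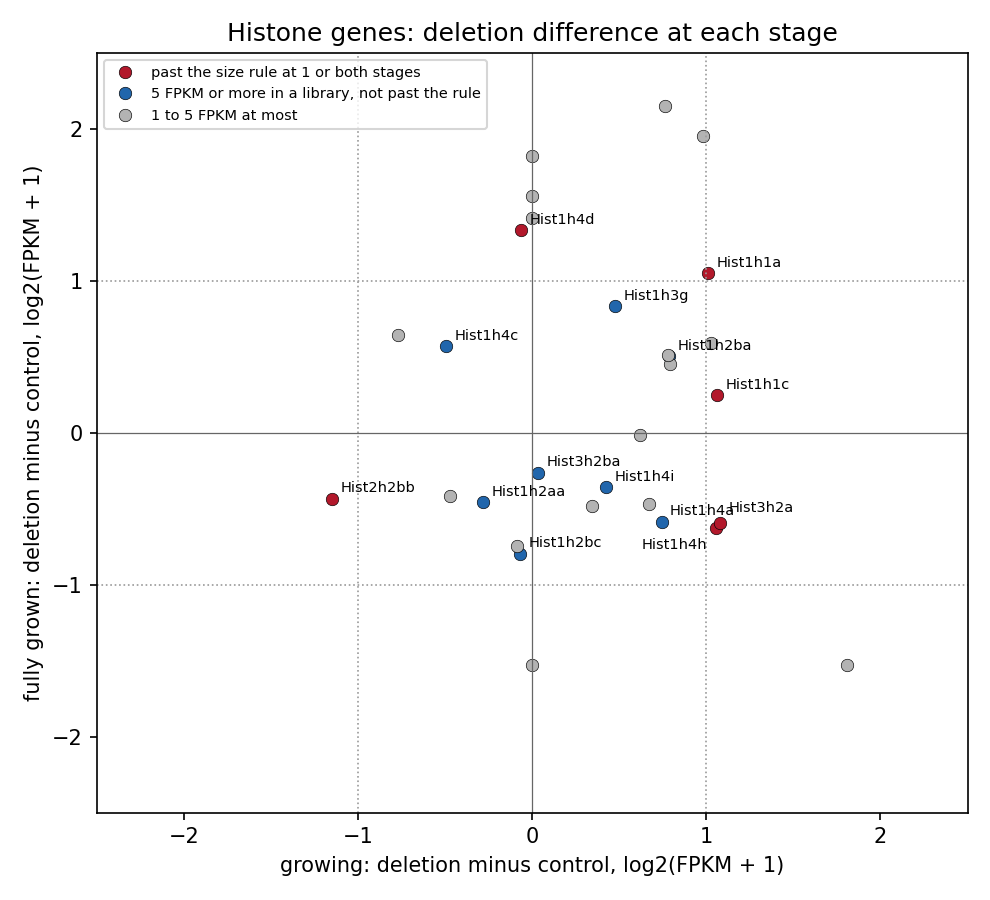
Each point is 1 of the 30 histone genes at 1 FPKM or more, with its deletion minus control difference in log2(FPKM + 1) in growing oocytes on the horizontal axis and in fully grown oocytes on the vertical axis; dotted lines mark a difference of 1 either way. Hist1h1a is at 1.01 and 1.05, while Hist1h4h (1.05 and -0.63) and Hist3h2a (1.08 and -0.59) lie above 0 in growing and below 0 in fully grown oocytes.

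Many of these genes lie near the limit of detection. The 11 H2A genes with a deposited span of the coding length alone, 387 to 393 bases, had 9 values between 0 and 1 FPKM, and all 9 lay between 0.824 and 0.993 FPKM, with no smaller value above 0. Among the 8 H4 genes with a span of the coding length alone, 312 bases, the smallest value above 0 was 1.89 FPKM, in fully grown control oocytes. The smallest was 5.21 FPKM in growing deletion, 2.90 in growing control and 2.54 in fully grown deletion oocytes. Hist1h4d stood at 18.8 times the 1.89 FPKM in fully grown deletion, 7.15 in fully grown control, 9.01 in growing deletion and 9.45 in growing control oocytes. These multiples are not counts of fragments. A deposited span equal to the coding length, with no untranslated part, was found for 32 of the 67 genes, 5 of them among the 14 expressed genes. The 16 genes that reached 1 FPKM but not 5 FPKM had a highest value of 4.11 FPKM.

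Promoters were taken from RefSeq (GRCm38.p6 build, 250 bases before to 50 bases after the start) for 61 of the 67 genes, 13 of the 14 expressed ones. Histone promoters are known for TATA boxes, CCAAT boxes, and an octamer element in H2B genes. These motifs were searched on both strands, spelled TATAAA for the TATA box, CCAAT for the CCAAT box and ATTTGCAT for the octamer. The TATA box letters were in 57.4% of the histone promoters, against 13.6% of all 32851 promoters. The CCAAT letters were in 85.2% of the histone promoters, against 37.4% of all promoters. They were in every H1, H2A, H2B and H3 promoter searched but in 3 of 12 H4 promoters. The octamer letters were in 21.3% of the histone promoters, against 1.74% of all promoters, in 7 of 17 H2A and 6 of 16 H2B promoters and in none of the H1, H3 and H4 promoters. Windows of head-to-head neighbours can overlap, and a site in the overlap is counted for both genes. The octamer of Hist1h2aa and that of Hist1h2ba are the same bases.

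The promoters of 3 genes are shown, Hist1h1a because it passed the size rule at both stages, Hist1h2aa because its window overlaps that of its neighbour Hist1h2ba, and Hist1h4d because its deletion difference was larger in fully grown oocytes. They lie at chr13:23763418-23763717, chr13:23934187-23934486 and chr13:23581318-23581617 (GRCm38.p6, plus strand). Capitals mark the letters of the 3 motifs on either strand.
Hist1h1a: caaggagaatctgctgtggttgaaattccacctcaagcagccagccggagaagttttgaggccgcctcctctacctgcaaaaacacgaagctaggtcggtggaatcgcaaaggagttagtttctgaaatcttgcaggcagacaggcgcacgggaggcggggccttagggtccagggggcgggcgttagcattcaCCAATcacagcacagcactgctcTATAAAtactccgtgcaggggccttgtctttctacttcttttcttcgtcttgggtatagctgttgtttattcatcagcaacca
Hist1h2aa: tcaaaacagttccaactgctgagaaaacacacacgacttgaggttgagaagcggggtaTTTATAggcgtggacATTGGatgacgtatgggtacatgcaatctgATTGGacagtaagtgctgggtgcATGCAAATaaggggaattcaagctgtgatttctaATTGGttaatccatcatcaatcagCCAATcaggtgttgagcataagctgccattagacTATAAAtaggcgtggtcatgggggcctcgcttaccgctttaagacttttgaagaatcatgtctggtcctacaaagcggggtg
Hist1h4d: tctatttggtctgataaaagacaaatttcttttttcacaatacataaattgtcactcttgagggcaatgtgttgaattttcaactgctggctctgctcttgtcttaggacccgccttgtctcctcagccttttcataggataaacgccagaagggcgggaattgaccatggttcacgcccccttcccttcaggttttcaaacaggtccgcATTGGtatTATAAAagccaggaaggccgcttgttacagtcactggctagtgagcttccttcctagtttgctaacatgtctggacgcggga
The Hist1h1a window holds 1 TATA box and 1 CCAAT match, that of Hist1h2aa holds 2 TATA box, 4 CCAAT and 1 octamer match, and that of Hist1h4d holds 1 TATA box and 1 CCAAT match. The window of Hist1h4h, whose pattern across the libraries was not that of Hist1h4d, held none of the 3 motifs, which says only that these letters are not in those 300 bases.

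Genes that transcribe and process histone mRNA ranged from low to abundant. Slbp, which encodes the stem-loop binding protein, was listed at 736 FPKM in growing deletion, 740.3 in growing control, 637 in fully grown deletion and 769.5 in fully grown control oocytes, with similar levels in the growing libraries. Lsm10, a subunit of the U7 snRNP, stood at 473 FPKM in growing deletion, 468 in growing control, 499.6 in fully grown deletion and 506 in fully grown control oocytes. Lsm11, its partner in the U7 snRNP, was low at 3.15 FPKM in growing deletion, 3.83 in growing control, 2.44 in fully grown deletion and 2.84 in fully grown control oocytes. Npat, the coactivator of histone gene transcription, was listed at 2.48 FPKM in growing deletion, 2.43 in growing control, 2.23 in fully grown deletion and 2.26 in fully grown control oocytes. Casp8ap2, another histone locus body protein, was listed at 21.6 FPKM in growing deletion, 24.7 in growing control, 29.7 in fully grown deletion and 33.0 in fully grown control oocytes. Slbp, Lsm10 and Casp8ap2 passed the size rule in no comparison, and Npat and Lsm11 stayed under its minimum of 5 FPKM.

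The list of histone transcription and 3′ end formation held 18 genes, all at 1 FPKM or more. Of these, 16 reached the minimum of the size rule in the growing and 15 in the fully grown deletion comparison, and none passed it. Their median deletion difference was 0.10 in growing and 0.01 in fully grown oocytes. In growth, Zfp473, a zinc finger protein of the U7 snRNP pathway, was lower in control oocytes, at 10.0 FPKM in fully grown control and 24.4 FPKM in growing control oocytes, a difference of -1.20. Its growth difference in deletion oocytes was -0.91, under the threshold. In deletion oocytes the lower genes were Cstf2 (a cleavage stimulation factor subunit), Ncbp1 (a cap-binding protein) and Snrpb, of which Snrpb, an Sm protein, stood at 37.2 FPKM in fully grown deletion and 106 FPKM in growing deletion oocytes. Ncbp1 reached 5 FPKM only in the growing deletion library. Growth differences in deletion oocytes were -1.21 for Cstf2, -1.29 for Ncbp1 and -1.48 for Snrpb. In control oocytes they were -0.96, -0.55 and -0.92 in the same order. Over all genes at the minimum, 8.75% were lower in growth of deletion oocytes and 3.07% in growth of control oocytes. Of 14 genes for histone mRNA translation and decay, 12 reached the minimum in each deletion comparison and none passed the rule, and Lsm1, a subunit of a complex that promotes mRNA decay, was lower in growth of deletion oocytes (26.8 FPKM in fully grown deletion and 75.4 FPKM in growing deletion oocytes). The growth difference of Lsm1 was -1.46 in deletion and -0.89 in control oocytes. Eri1, an exonuclease that trims the histone stem-loop, was listed at 13.4 FPKM in growing deletion, 7.95 in growing control, 12.5 in fully grown deletion and 8.96 in fully grown control oocytes. It lay above control in both deletion libraries, by 0.69 in growing and 0.44 in fully grown oocytes, under the threshold.

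Of the 18 histone chaperones and assembly factors, 17 reached the minimum in each of the 4 comparisons and none passed the rule. Over all genes at the minimum, 1.08% to 2.62% were past the rule in each direction of a deletion comparison. In growth, 3.07% were lower in control and 8.75% in deletion oocytes. Of the 12 replacement and variant histones, 11 reached the minimum, none passed the rule in either deletion comparison or in control growth, and H2afx and H2afz were lower in growth of deletion oocytes. H2afx, the variant phosphorylated at DNA breaks, stood at 135 FPKM in fully grown deletion and 329 FPKM in growing deletion oocytes. H2afz stood at 81.0 FPKM in fully grown deletion and 211 FPKM in growing deletion oocytes. In growth of control oocytes the differences were -0.45 for H2afx and -0.84 for H2afz, under the threshold. All 20 markers of cycling cells reached 1 FPKM, a set that oocytes also express. Ccne1, a cyclin that drives entry into S phase, was the only one past the size rule in a deletion comparison, at 20.8 FPKM in growing deletion and 8.02 FPKM in growing control oocytes, a difference of 1.27. It was lower in growth of both genotypes, at 3.90 FPKM in fully grown deletion and 3.30 FPKM in fully grown control oocytes. In each growth comparison it reached 5 FPKM only in the growing library.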

How the data were processed

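RNA of 10 oocytes per sample was made into cDNA with Smart-seq2 from oligo-dT primers and into libraries with Tn5 transposase, per the labels' protocols. The values are FPKM as deposited by the authors. The tools were Cufflinks 2.2.1, TopHat2 2.0.11, CASAVA 1.8 and Bowtie2 2.1.0, with the mm9 build, per the submitters' processing notes. What is not given in the sources used here is the role and settings of each, the gene models, the use of strand, the counting of fragments with several matches, and the depth, so no interval for counting error could be given.

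The symbols of the deposited table are not in the sort order of its values. Values were read with the symbols in byte order, which leaves 4113 of 23235 symbols in place and moves each histone symbol by 1 row. It is inferred from the values, was decided with the data in view, and the submitters were not asked. Within the histone block, the Spearman correlation across genes between the smallest value above 0 of low genes and the deposited span was -0.48 in byte order (34 genes) and -0.24 as deposited. Other shifts gave -0.27 to 0.11. Genes are not independent replicates.

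Differences were computed as log2(FPKM + 1) with Python 3.11.15, numpy 2.4.6, pandas 2.3.3 and scipy 1.17.1, and drawn with matplotlib 3.10.9. The size rule was checked on simulated data, which cannot give its rate of false calls between single libraries. The members and gene lists were chosen with earlier results of these data known. Histone genes were named where they reached 5 FPKM in a library or were listed at 0 throughout, with 1 exception said to be chosen after its values were seen. Genes of the other lists were named where they passed the size rule, were chosen processing factors, or were the most abundant markers of another cell type. The longest coding transcript of each gene was searched for the stem-loop and for shared words of 50 bases. GC content and length were known for 98.0% of genes and all 67 histone genes. They were taken from annotated transcripts, which can differ from the deposited span, as for Hist1h4d with 1138 against 312 bases. The trend removed may therefore not use the length behind the FPKM. The alternatives tried were a pseudocount of 0.1, a minimum of 10 FPKM or none, median-ratio rescaling, the symbols as deposited, differences with a GC and length trend taken out, and subsets of members.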

Additional observations from a re-analysis of the deposited data

Results flagged for a closer look

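For 3 histone genes past the size rule at 1 stage, the deletion difference had the opposite direction at the other stage. Opposite directions were found for 33.2% of all genes at 5 FPKM or more, and the share among all genes past the rule was not computed. These histone genes were picked by a large difference at 1 stage, and the growing difference of Hist1h4d, -0.07, is near 0. Each stage has 1 library per genotype, so the difference between the stages was not tested.

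Hist1h4d had a deletion minus control difference of 1.34 in fully grown oocytes and -0.07 in growing oocytes, which is 1.40 apart on the log2(FPKM + 1) scale. Hist1h4h had -0.63 in fully grown and 1.05 in growing oocytes, which is -1.68 for fully grown minus growing. Hist3h2a had -0.59 in fully grown and 1.08 in growing oocytes, which is -1.67 for fully grown minus growing.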

How the results depend on the processing

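No paired analysis was possible because each group held 1 library. Deletion against control in growing oocytes gave 1 histone gene higher, against 4, with the GC and length trend removed, 0 lower, against 1, at a minimum of 10 FPKM or among genes with under 50% of their 50-base words shared, and a median of 0.56 with a pseudocount of 0.1 and 0.30 with the trend removed. In fully grown oocytes it gave 7 higher and 2 lower with no minimum, and 1 higher after median-ratio rescaling, with the symbols as deposited, or among genes whose span exceeds the coding length. The median there was -0.31 over the genes at 5 FPKM or more. Control growth gave 5 higher and 1 lower with no minimum, 0 higher at a minimum of 10 FPKM, 1 higher and 1 lower with the trend removed, 1 higher in either subset of genes, and a median of -0.28 with the trend removed. Deletion growth gave 8 higher with no minimum, 1 higher among genes whose span exceeds the coding length, and 2 lower at a minimum of 10 FPKM. Its median was -0.34 with the trend removed, -0.017 with the symbols as deposited and -0.47 over the genes at 5 FPKM or more. Mean class sums without the highest gene were 5.97 FPKM for H1 (41.6 with it), 9.16 for H2A (60.2), 28.4 for H2B (249) and 8.20 for H3 (13.8), and the H2A sum was 24.4 with the symbols as deposited. With those symbols the growing deletion difference was -0.020 for Hist1h1a and -0.14 for Hist1h1c, and the growth difference of Hist1h2ba was -0.66 in deletion and -0.020 in control oocytes. Of the other values for single genes, 48 kept their direction and side of the threshold and 16 no longer passed the threshold. Both counts include values with the symbols as deposited, where a symbol takes the value of a neighbouring row. A gene counted as kept there, such as Hist1h4d, is not thereby shown to be stable. The 2 subsets by span and by shared words were chosen after seeing the data, and the cause of these shifts was not tested. The shared words were counted over annotated transcripts, which can be longer than the deposited span.

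The groups have no replicate and the depth is not known, so neither replicate spread nor counting error can be given. Among H4 genes whose span is the coding length the smallest value above 0 was 1.89 FPKM, in fully grown control oocytes, which limits what differences near 5 FPKM can show.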
